A study of Mus musculus with 35 samples.

Results

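Fatty acid-binding proteins are small carriers of the cytoplasm that bind long-chain fatty acids and hand them to membranes, enzymes and nuclear receptors. Fabp7, the brain-type carrier, is made by radial glia, astrocytes and tanycytes and binds polyunsaturated fatty acids. Fabp5, the epidermal type, is found in neurons and glia and carries retinoic acid as well as fatty acids, and Fabp3, the heart type, is mainly neuronal in the adult brain. These 3 genes were matched by name among the 49568 genes counted, and all 3 were among the 18063 genes with enough counts to be tested. Fabp7 was chosen by its log2 fold change in fed mice that carry PER2-S662D, where its rise was the largest among called genes averaging 1 CPM or more. Its values in fed mice are therefore given as a description, without a test, and the same holds for Fabp5 and Fabp3 in that contrast.

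PolyA RNA was sequenced from the hypothalamus of 35 mice, all male and of the strain B6/J, killed at Zeitgeber time 16, where hours are counted from lights-on. There were 10 fed and 10 fasted controls, 5 fed and 5 fasted PER2-S662D mice, and 5 fasted mice labelled Per2 knockout, which had no fed group. Fed mice ate freely, and fasted mice had no food for the 16 h before. PER2 is a core repressor of the circadian clock, and in S662D a phosphorylated serine is replaced by aspartate. How the knockout and S662D alleles were made, and the age of the mice, are not given in the sources used here. Depth ran from 17959586 to 37027342 counts per library, and each library was 1 mouse as far as the labels show, so p-values measure the spread between these libraries.

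Several facts of the series bear on the members. The library numbers of controls 1 to 5, of controls 6 to 10, of the labelled knockout and of S662D do not overlap. For the last 2, genotype and range of library numbers cannot be told apart. In addition, the library numbers of S662D replicates 2, 3 and 4, fed and fasted, end in an added digit whose meaning is not stated. Per2 itself averaged 28.2 CPM in fed and 29 CPM in fasted controls and 30.3 CPM in the libraries labelled Per2 knockout, so the counts over all its exons were not lower under that label. In S662D mice Per2 averaged 18.7 CPM fed and 19.9 CPM fasted. CPM stands for counts relative to library size, scaled by the trimmed mean of M-values (TMM). All 10 hypothalamus-defining genes examined, among them Hcrt and Pmch, were detected, at a summed 529 to 759 CPM.

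Fabp7 lies on chromosome 10 (57784881 to 57788450, plus strand, mm10) with 1250 exon bases. None of the 1201 words of 50 bases in its GENCODE M21 transcripts occurs in a transcript of another gene, and none of its exon bases overlap another gene in the count tables. Fabp5 (chromosome 3, 10012548 to 10016607, plus strand) has 3567 exon bases, and 5.48% of its words are shared, among others with Fabp5-like copies. Fabp3 (chromosome 4, 130308595 to 130315463, plus strand) has 823 exon bases, and 37.3% of its words are shared, most of them with the pseudogene Fabp3-ps1. In addition, 9.84% of the Fabp3 exon bases overlap Zcchc17 on the opposite strand, and 12.8% of those of Nr1d1, described with the clock genes, overlap Thra in the same way. Since every alignment of a multi-mapping read was counted, and without strand, the Fabp3 and Nr1d1 counts are uncertain in a way the Fabp7 counts are not.

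The stretch upstream of Fabp7 is shown because REV-ERB proteins, discussed with the clock genes, repress through the half-site AGGTCA. RefSeq's promoter table (GRCm38.p6) of windows of 300 bases around start sites, held windows for 2 of the 3 members, Fabp7 and Fabp3. The Fabp7 window is printed up to the base before the gene's first exon in the count tables, chr10:57784673-57784880, plus strand, 208 bases, with the half-site in capitals (bases 80 to 85, read as TGACCT on this strand).
Fabp7 upstream: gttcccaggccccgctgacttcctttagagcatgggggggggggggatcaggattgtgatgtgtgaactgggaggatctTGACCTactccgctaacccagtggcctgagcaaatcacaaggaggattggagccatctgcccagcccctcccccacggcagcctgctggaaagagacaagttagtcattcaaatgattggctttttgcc
The capitals stand at chr10:57784752-57784757. On either strand, AGGTCA was present in 16.3% of the 32851 windows of 300 bases in the table, so a match is common. The full REV-ERB response element, the same half-site behind an A/T-rich stretch, was in 0.219% of windows and not in that of Fabp7, and the E-box CACGTG was in 7.15% and not in that of Fabp7. The Fabp3 window (chr4:130308488-130308787) held none of the 3. A match is a string of letters and not a measured binding site.

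The level of Fabp7 differed between the groups, while those of Fabp5 and Fabp3 lay close together. In fed controls Fabp7 ranged from 10.6 to 14.7 CPM with a median of 12 CPM (mean 12.4 ± 1.58, SD, n = 10). In fasted controls it ranged from 8.64 to 13.8 CPM with a median of 10.9 CPM (mean 10.8 ± 1.57, SD, n = 10). In fed S662D mice the values were 18.5, 26.7, 25.2, 24.3 and 23.9 CPM in replicates 1 to 5 (mean 23.7 ± 3.12, SD, n = 5). All 5 lay above every fed control, in the contrast that chose the gene, as held for 0.41% of the 18063 genes tested.

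In fasted S662D mice Fabp7 stood at 17.0, 15.8, 11.5, 18.7 and 16.1 CPM in replicates 1 to 5 (mean 15.8 ± 2.65, SD, n = 5). Replicate 3 lay among the controls and the other 4 lay above all 10 fasted controls. In the libraries labelled Per2 knockout the values were 8.74, 7.81, 7.87, 6.58 and 8.20 CPM (mean 7.84 ± 0.793, SD, n = 5), and 4 of these 5 lay below every fasted control. The order was thus fed S662D, fasted S662D, fed control, fasted control and labelled knockout. The ranges of each pair of neighbours in this order overlapped.

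**Figure D1:**
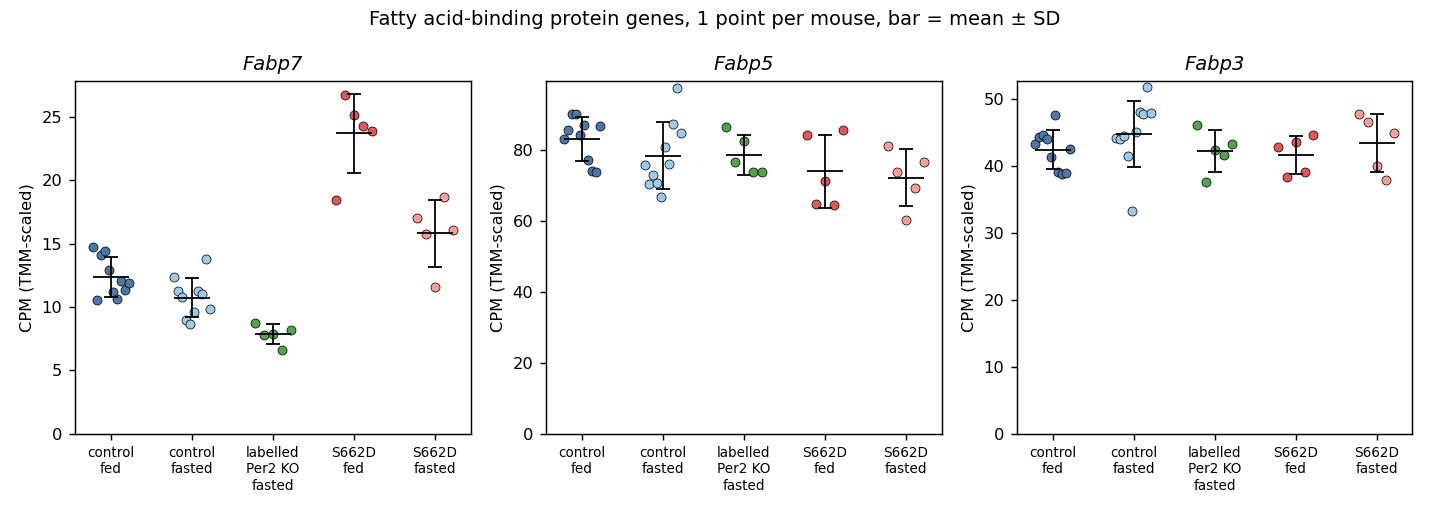
TMM-scaled CPM of Fabp7, Fabp5 and Fabp3 (vertical axes, each from 0) in the 5 groups, 1 point per mouse, with bars for the mean and SD. The 5 fed S662D points of Fabp7 (18.5 to 26.7 CPM) stand above all fed controls (10.6 to 14.7 CPM), while the groups of Fabp5 and Fabp3 overlap.

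The fasted libraries are not in the fed contrast that chose the gene. They did enter the shared fit, and the gene was chosen with earlier results of these data known. In fasted mice Fabp7 was higher in S662D than in controls. The mean was 1.47 times that of fasted controls, a log2 fold change of 0.56 (SE 0.098, 95% interval 0.36 to 0.75), and edgeR's quasi-likelihood test gave an adjusted p of 0.00103. Of all 18063 genes, 5.57% were called in this comparison, where called means an adjusted p below 0.05, so 1 member of 3 was called against that background. Of the genes averaging 1 CPM or more, Fabp7 had rank 22 of 15479 by the size of its rise, and rank 12 of the 985 called ones. An exact permutation test of its log2 CPM, two-sided and for this gene alone, gave p = 0.000999. Only 0.304% of genes had all 5 fasted S662D mice above all 10 fasted controls, and Fabp7, with 4 of 5, was not one of them.

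The rise was present in each technical set of the fasted mice. It was 0.61 against controls 1 to 5 alone and 0.51 against controls 6 to 10 alone. Those fits called 9.45% and 0.269% of genes. The rise was 0.51 for the S662D libraries with the additional digit and 0.62 for those without it, replicates 1 and 5. Here 17.1% and 0.112% of genes were called. The call of Fabp7 held in each of these fits. With the digit as a term in the fit the log2 fold change was 0.51 and the adjusted p 0.055, just past the threshold, in a fit that called 0.111% of genes.

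In fed mice, the contrast that chose the gene, the mean of Fabp7 was 1.91 times that of controls, a log2 fold change of 0.94 (SE 0.095). In that contrast 4.69% of genes were called, and nothing about the members is read from it. The next called genes by size were Aox4 (0.94, SE 0.22), Mmp14 (0.79, SE 0.079) and Gucy2f (0.76, SE 0.22), so Fabp7 and Aox4 differ by less than their errors. In fed S662D mice Fabp7 averaged 25.4 CPM in the 3 libraries with the digit and 21.2 CPM in the 2 without it.

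Fasting was described for Fabp7 without a test, since both contrasts contain fed mice that chose it. From fed to fasted, the mean in S662D mice went from 23.7 to 15.8 CPM, a log2 fold change of -0.59 (SE 0.11), and 4 of 5 fasted S662D mice lay below all fed ones. In control mice it went from 12.4 to 10.8 CPM, a log2 fold change of -0.20 (SE 0.085). The difference between these 2 responses was -0.38 (SE 0.14). The choice of the gene by its fed values bears on the sign of both. Within the control sets, fasting gave -0.36 in replicates 1 to 5 and -0.038 in replicates 6 to 10. No gene was called for that interaction by edgeR (0% of 18063, with 1151 at an unadjusted p under 0.05 and a lowest adjusted p of 0.762).

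In the libraries labelled Per2 knockout, Fabp7 was at 0.729 times the mean of fasted controls, a log2 fold change of -0.46 (SE 0.11, 95% interval -0.69 to -0.24). It was not called over all genes (adjusted p = 0.251), in a comparison in which 0.0277% of genes were called, 5 in all. An exact permutation test for this gene alone, two-sided, gave p = 0.00133. The log2 fold change was -0.41 against controls 1 to 5 alone and -0.51 against controls 6 to 10 alone. It was called only against the latter (adjusted p = 0.0353), in a fit that called 0.556% of genes.

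The labelled knockout and S662D mice, both fasted, did not overlap in Fabp7. All 5 of the former (6.58 to 8.74 CPM) lay below all 5 of the latter (11.5 to 18.7 CPM). On the log2 scale the difference was -1.02 (SE 0.12, adjusted p = 2.56e-07), where 7.34% of genes were called and 2.75% had all labelled knockout mice below all S662D mice. These 3 fasted comparisons share mice pairwise, so they are not separate pieces of evidence.

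**Figure D2:**
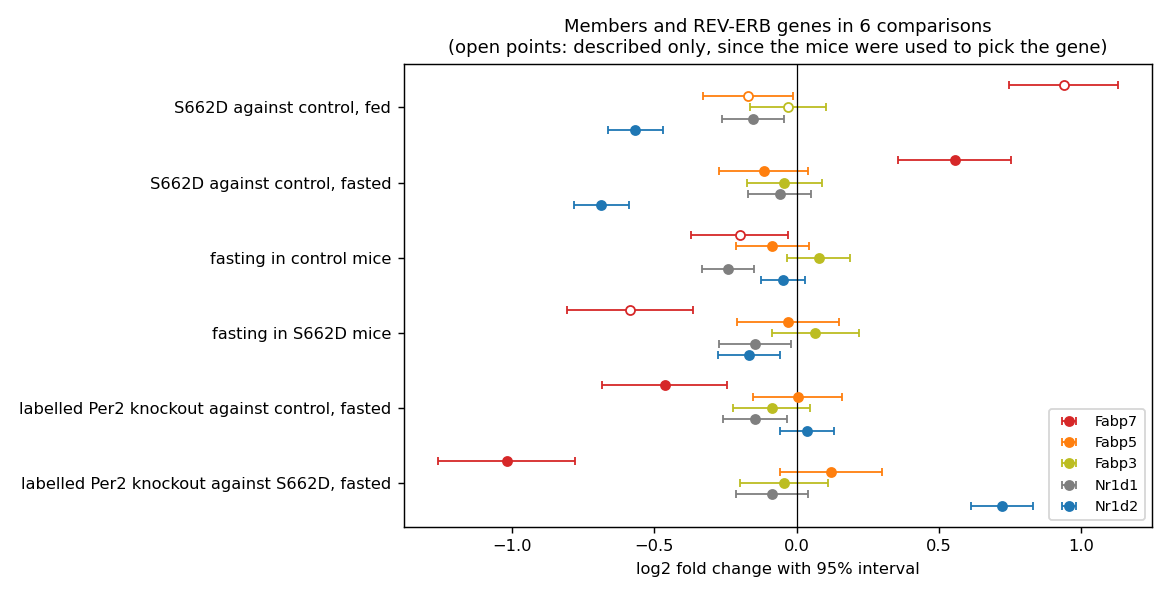
Log2 fold changes (horizontal axis) with 95% intervals for Fabp7, Fabp5, Fabp3, Nr1d1 and Nr1d2 in 6 comparisons. Open points mark values given as a description only, those of the Fabp genes in the fed contrast and of Fabp7 on fasting. Filled points of the other genes in these contrasts rest on the same mice. The Fabp7 interval in fasted S662D mice runs from 0.36 to 0.75.

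Fabp5 did not follow Fabp7. It ranged from 73.7 to 90.1 CPM in fed controls (mean 83.1 ± 6.16, SD, n = 10) and from 66.6 to 97.5 CPM in fasted controls (mean 78.3 ± 9.43, SD, n = 10). In fed S662D mice it stood at 84.2, 64.7, 71.1, 64.3 and 85.5 CPM, and in fasted S662D mice at 81.0, 73.7, 60.2, 69.1 and 76.6 CPM. In the labelled knockout it stood at 86.3, 76.5, 82.5, 73.6 and 73.8 CPM. The ranges of all 5 groups overlapped.

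Fabp5 was called in none of the comparisons between genotypes or feeding states in which it was tested. In fasted S662D mice against controls its log2 fold change was -0.12 (SE 0.077, 95% interval -0.27 to 0.040, adjusted p = 0.418). The interval excludes a rise of the size seen for Fabp7. In fed mice the value was -0.17 (SE 0.078), given as a description. On fasting the log2 difference of Fabp5 came to -0.085 (SE 0.063, adjusted p = 0.653) in control mice, where 3.88% of genes were called, and -0.031 (SE 0.089, adjusted p = 0.917) in S662D mice, where 2.64% were called.

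The Fabp5 values differed between the technical sets. In S662D mice the libraries with the additional digit averaged 66.7 CPM fed and 67.7 CPM fasted, and those without it 84.9 and 78.8 CPM. In fed mice the 2 without the digit lay above all 3 with it, and the same was true of fasted mice. With so few libraries such an order is weak evidence. The share of all genes that had it was not computed, so nothing particular to Fabp5 is read from it. For the libraries without the digit, the log2 fold change against controls was 0.029 fed and 0.012 fasted. For those with it, the fed value was -0.32, and against controls 1 to 5 alone that of all fed S662D mice was -0.23. Both passed the threshold, in fits that called 16.9% and 9.79% of genes. As this contrast chose Fabp7, these values are given as a description and no test is read from them.

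In controls, the fasting values of the 2 sets of mice had opposite signs. Fabp5 went from 86.5 to 71.2 CPM in controls 1 to 5, a log2 fold change of -0.28 (adjusted p = 0.0155), and from 79.7 to 85.3 CPM in controls 6 to 10, a log2 fold change of 0.10 (adjusted p = 0.561). The difference between these responses, tested after the data were seen, was 0.38 (SE 0.11, adjusted p = 0.0220), where 10.6% of genes were called. It lost its call without fed control 9 (adjusted p = 0.0576), without fasted control 5 (0.0560) or without fasted control 9 (0.0519). Among fasted controls, replicates 6 to 10 were higher in Fabp5 than replicates 1 to 5 by 0.26 (SE 0.076, adjusted p = 0.0376), where 6.02% of genes were called, and that share was 0.401% without fasted control 5. This call was lost without fasted control 2, 3, 4, 5, 8 or 9, with adjusted p-values of 0.0589 to 0.140. Among fed controls no gene was called between the sets by edgeR (0%, with 2447 at an unadjusted p under 0.05). In the same fasted contrast, 5 of 8 microglia markers and 3 of 8 myelin markers were called higher in replicates 6 to 10, and their part in the Fabp5 difference was not tested.

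**Figure D3:**
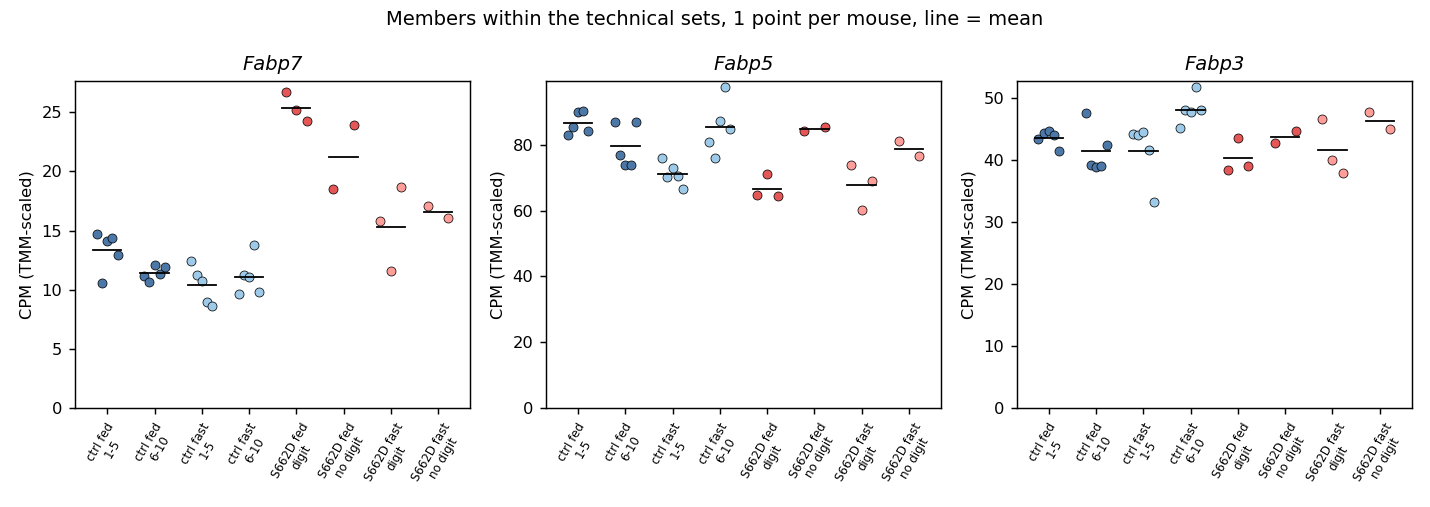
TMM-scaled CPM of the members within the technical sets, 1 point per mouse with a line at the mean. Controls are split into replicates 1 to 5 and 6 to 10, and S662D libraries by the additional digit. Fabp5 in fed S662D mice averages 66.7 CPM with the digit and 84.9 CPM without it.

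Fabp3 lay at a similar level in all 5 groups and was, per base of exon, the most abundant of the 3. On the scale of CPM per kilobase of exon, averaged over all 35 libraries, the level was 52.4 for Fabp3, 21.9 for Fabp5 and 10.7 for Fabp7, with the reservation about shared reads made for Fabp3. Fabp3 ranged from 38.8 to 47.6 CPM in fed controls, 33.2 to 51.8 CPM in fasted controls, 37.6 to 46.2 CPM in the labelled knockout, 38.3 to 44.7 CPM in fed S662D mice and 38 to 47.8 CPM in fasted S662D mice. Group means lay between 41.7 and 44.8 CPM, less than 1 SD of the fasted controls (4.99) apart.

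Fabp3 was called in none of the comparisons between genotypes or feeding states. In fasted S662D mice against controls its log2 fold change was -0.043 (SE 0.066, 95% interval -0.18 to 0.090, adjusted p = 0.772). Between the sets of fasted controls Fabp3 differed by 0.21 (SE 0.069, adjusted p = 0.0540), in the same direction as Fabp5. Fabp5 and Fabp3 varied together over the 35 mice, with a Pearson correlation of log2 CPM of 0.641, and 0.766 after the group means were subtracted. Those of Fabp7 with Fabp5 and Fabp3 after the same subtraction were 0.349 and 0.357. These values are descriptions, and the mice share library sets.

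The wider family of intracellular lipid-binding proteins had 15 genes in the files, of which 6 were tested, among them the 3 members and the retinoic acid carriers Crabp1 and Crabp2. Fabp1, Fabp2 and Fabp9, the liver, intestinal and testis types, had 0 counts in all 35 libraries, which allows 3 counts in a library or 0.081 to 0.167 CPM. Fabp4, Fabp6, Fabp12, Pmp2, Rbp2 and Rbp7 were too low to be tested, with the highest single value at 0.700 CPM, for Rbp7. Of the 6 tested, Fabp7 alone was called in fasted S662D mice, and the median log2 fold change of the 6 was -0.10, beside -0.0034 for all genes. Crabp1, which binds retinoic acid, was at 3.38 CPM over all libraries and had a log2 fold change of -0.086 (SE 0.15) in that comparison. Crabp2, which also binds retinoic acid, was at 0.668 CPM and had -0.20 (SE 0.47).

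REV-ERB-alpha and REV-ERB-beta, encoded by Nr1d1 and Nr1d2, are nuclear receptors of the clock that repress genes at their half-sites, and Fabp7 has been described as one of their targets in the brain. Nr1d2 ranged from 120 to 142 CPM in fed controls and from 120 to 139 CPM in the labelled knockout. In fasted controls it ranged from 122 to 131 CPM, apart from replicate 5 at 144 CPM. It ranged from 81.4 to 98.6 CPM in fed and from 76 to 85.1 CPM in fasted S662D mice. These values lay below every control of the same feeding state, as held for 0.432% of genes fed and 0.21% fasted. The log2 fold change in S662D was -0.57 (SE 0.048, adjusted p = 3.21e-11) fed and -0.69 (SE 0.048, adjusted p = 1.09e-13) fasted. Nr1d1 did not pass the test in either, with -0.15 (SE 0.055, adjusted p = 0.0878) fed and -0.060 (SE 0.055, adjusted p = 0.586) fasted. It fell on fasting in control mice, by 0.24 on the log2 scale (SE 0.045, adjusted p = 0.000286), in which 8 of 10 fasted mice lay below all fed ones.

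Set beside Nr1d2, the groups formed 2 clouds, parted by Nr1d2 alone, since the Fabp7 ranges overlapped. The fed Fabp7 values are those by which the gene was chosen, so this is a description. All 10 S662D mice combined Nr1d2 below 100 CPM with Fabp7 of 11.5 CPM or more, and the other 25 combined Nr1d2 of 120 CPM or more with Fabp7 of 14.7 CPM or less. The labelled knockout had Nr1d2 at 120 to 139 CPM and the lowest mean of Fabp7. Within the S662D mice, mean Nr1d2 was 89.8 CPM fed and 80 CPM fasted, a difference that did not pass the test (adjusted p = 0.0924).

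Within the groups of 10 controls, 12 relations over mice were computed (3 members, 2 genes, 2 feeding states). Those of Fabp7 in fed controls are given without a test, since these mice are part of the contrast that chose it. With Nr1d2, Pearson's r was -0.831 and Spearman's rho -0.794, and r was -0.714 without the 2 mice farthest from the median of Nr1d2, replicates 1 and 7. Fed controls 1 to 5 had more Fabp7 (13.4 against 11.4 CPM) and less Nr1d2 (129 against 137 CPM) than fed controls 6 to 10, and with the means of the sets subtracted r was -0.731. With Nr1d1, r for Fabp7 in fed controls was -0.233 and rho -0.115.

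The other 10 relations were tested by permutation, with p-values adjusted over all 12, and none passed. In fasted controls r of Fabp7 with Nr1d2 was -0.43 (rho -0.309, permutation p = 0.219 for r and 0.388 for rho, adjusted p = 0.525 and 0.973). It was -0.00833 without replicates 3 and 5, and -0.437 with the means of the sets subtracted. With Nr1d1 it was -0.0055 (rho 0.0788, permutation p = 0.988 and 0.839). For Fabp5 and Fabp3 the 8 values of r ran from -0.626 to 0.0572, with adjusted p-values of 0.525 to 0.948. The lowest of these, Fabp3 with Nr1d2 in fasted controls, was 0.367 without replicates 3 and 5 and -0.818 with the means of the sets subtracted, so its sign rests on those mice.

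**Figure D4:**
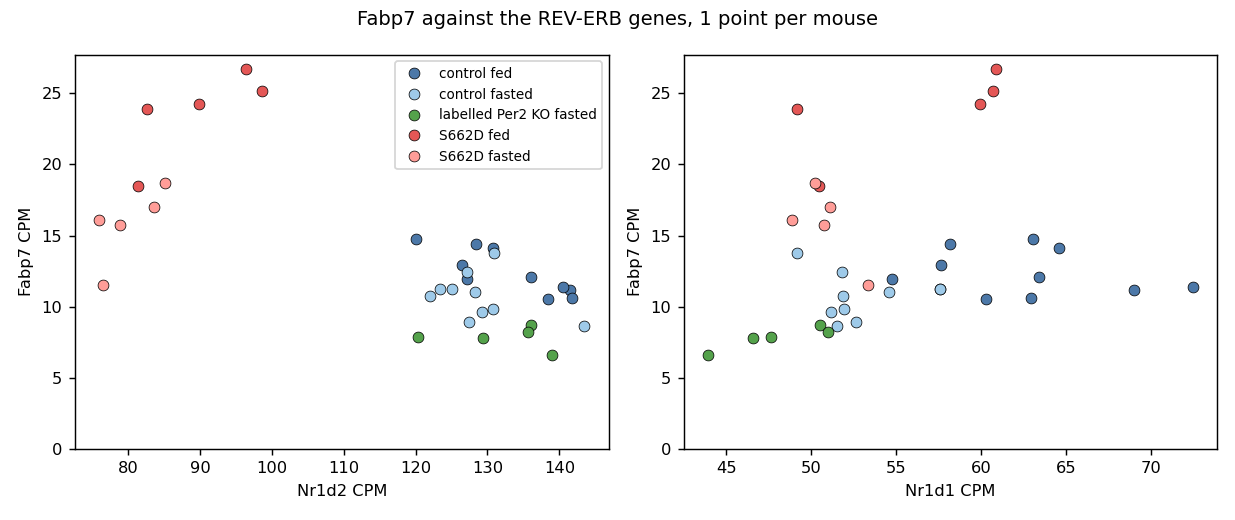
Fabp7 (vertical axis, CPM) against Nr1d2 (left) and Nr1d1 (right), 1 point per mouse, coloured by group. In the left panel the S662D mice lie apart at 76 to 98.6 CPM of Nr1d2, and no such gap appears for Nr1d1.

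Of 5 clock genes that REV-ERB represses, 4 were called higher in fasted S662D mice, with a list median of 0.44 on the log2 scale. In that comparison 5.57% of all genes were called. Npas2, a partner of BMAL1, rose by 0.54 (SE 0.10, adjusted p = 0.00231), and Arntl, which encodes BMAL1, by 0.50 (SE 0.054, adjusted p = 4.19e-08). Nfil3, a repressor of clock output, rose by 0.44 (SE 0.088, adjusted p = 0.00342), and Cry1, the partner of PER2, by 0.40 (SE 0.050, adjusted p = 7.58e-07). Clock was at 0.014 (SE 0.062). Without the digit libraries, in a fit that called 0.112% of genes, Npas2 was at 0.19 and Nfil3 at 0.21. Neither was called there or with the digit as a term, where 0.111% of genes were called. Arntl and Cry1 kept their calls in all 49 alternatives.

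The same 4 were called higher in fed S662D mice, where 4.69% of all genes were called. They were called lower in the labelled knockout against S662D, where 7.34% were called. On fasting in S662D mice, where Fabp7 was at -0.59 and 2.64% of all genes were called, none of the 5 was, with a list median of -0.064.

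Against fasted controls, none of the 5 was called in the labelled knockout, where 0.0277% of all genes were called. There the list median was -0.065 and Fabp7 was at -0.46. The promoter windows of Nfil3, of 1 of 2 Arntl start sites and of 1 of 3 Clock start sites held AGGTCA, and those of Npas2 and Cry1 did not. The window of that Arntl site also held the full response element.

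**Figure D5:**
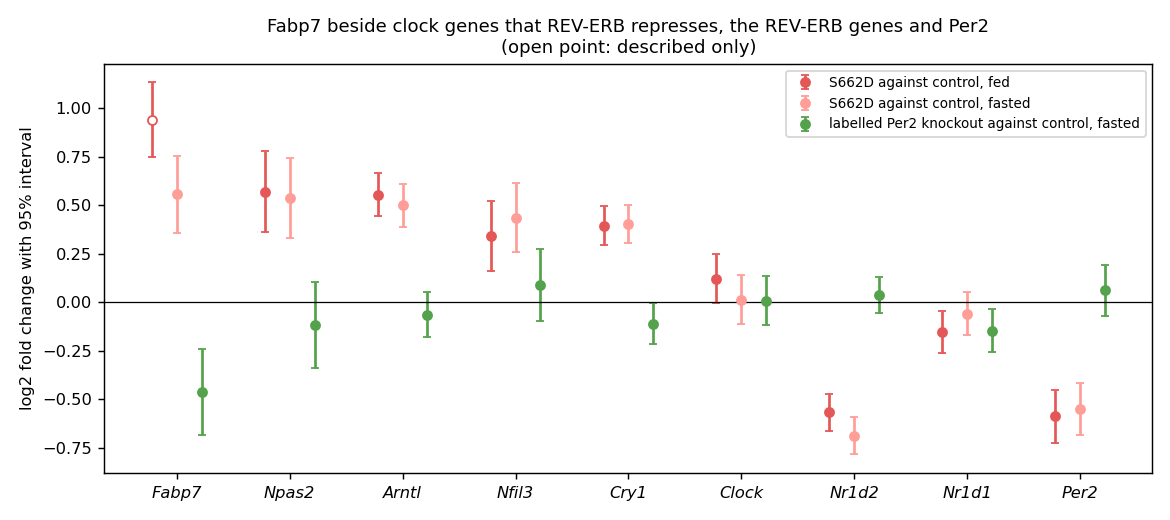
Log2 fold changes (vertical axis) with 95% intervals of Fabp7, 5 clock genes that REV-ERB represses, Nr1d2, Nr1d1 and Per2 in S662D mice fed and fasted and in the labelled knockout. Arntl stands at 0.50 in fasted S662D mice, near Fabp7 at 0.56, and in the labelled knockout the 5 clock genes lie between -0.12 and 0.088 and Fabp7 at -0.46.

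The fatty acid genes around the carriers are given beside the 5.57% of all genes called in fasted S662D mice. None of the 19 genes for fatty acid uptake and activation was called (list median 0.043), and none of 14 tested PPAR target genes was (median -0.011). Of 9 nuclear receptors that bind fatty acids or retinoids, Ppard, the receptor to which Fabp5 delivers its ligand, was called higher, by 0.37 (SE 0.069, adjusted p = 0.00151). Ppard was at 0.22 and not called without the digit libraries, in a fit that called 0.112% of genes. None of 13 Notch pathway genes was called, a pathway that drives Fabp7 in radial glia (median 0.029). In fed S662D mice the receptors Notch2 and Notch3 were called higher, where 4.69% of all genes were called. In the labelled knockout against S662D Notch1 and Notch3 were called lower, where 7.34% were called.

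On fasting, 3.88% of all genes were called in control and 2.64% in S662D mice. The genes named here were picked after their values were seen. In control mice 2 of 19 uptake genes were called higher: Mfsd2a, which carries docosahexaenoic acid into the brain, at 0.87 (SE 0.13, adjusted p = 4.76e-05), and Slc27a1, a fatty acid transporter, at 0.17 (SE 0.042, adjusted p = 0.00936). The list median was -0.0055. In S662D mice Mfsd2a alone of the list was called, at 0.95 (SE 0.18, adjusted p = 0.00168). PPAR targets were called higher for 5 of 14 in control and 4 of 14 in S662D mice, among them Angptl4 (1.61, SE 0.18, and 1.54, SE 0.23). Of 13 Notch genes, 3 were called lower in control mice and 2 in S662D mice, with Hes5, a Notch effector, in both (-0.56, SE 0.14, and -0.69, SE 0.20). The call of Hes5 in S662D mice (adjusted p = 0.0487) was kept in 15 of 49 alternatives. Of the 9 nuclear receptors, Rarg was called lower in control mice and none in S662D mice.

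None of 16 astrocyte markers and none of 14 tanycyte markers was called between fasted S662D mice and controls (medians 0.044 and 0.022), beside 5.57% of all genes. In fed S662D mice, where 4.69% of genes were called, the astrocyte marker Sox9 was called higher and the tanycyte marker Adm lower. In the labelled knockout against S662D, where 7.34% were called, Sox9 was called lower. The summed astrocyte markers ran from 4850 to 5320 CPM in fasted controls and from 5020 to 5670 CPM in fasted S662D mice, and the summed tanycyte markers from 188 to 237 and from 198 to 232 CPM. In bulk tissue, fewer cells of a type and less RNA per cell cannot be told apart. Between fasted S662D mice and controls, other cell types did show called markers.

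In fasted S662D mice, 5 of 8 oligodendrocyte precursor markers were called higher (median 0.28), with Cspg4, the NG2 proteoglycan, at 0.38 (SE 0.095), Gpr17 at 0.35 (SE 0.065) and C1ql1 at 0.31 (SE 0.087). Without the digit libraries, in a fit that called 0.112% of genes, these were at 0.049, 0.18 and 0.071 and were not called. Cspg4 lost its call in 8 and C1ql1 in 11 of 49 alternatives, among them those without fasted S662D replicate 2, 3 or 4. Their sum ran from 444 to 503 CPM in fasted controls and from 477 to 609 CPM in fasted S662D mice. Of 9 endothelial and pericyte markers, 3 were called higher (median 0.25): Cldn5, a tight junction protein, at 0.47 (SE 0.083), Flt1, a receptor of VEGF, at 0.37 (SE 0.077), and Pecam1 at 0.28 (SE 0.073). In the same fit without the digit libraries, which called 0.112% of genes, Flt1 was at 0.099, Pecam1 at 0.10 and Cldn5 at 0.44. None of these was called there. Flt1 also lost its call without fasted S662D replicate 4, and Pecam1 without replicate 3 or 4. Their sum ran from 260 to 301 CPM in fasted controls and from 266 to 355 CPM in fasted S662D mice. Among 10 neuron markers Slc32a1, the vesicular GABA transporter, was called higher, at 0.23 (SE 0.055). No marker of microglia, ependyma, myelinating oligodendrocytes, fibroblasts or choroid plexus was called, nor was any pituitary or hypothalamus-defining gene. The choroid plexus markers, whose list median was -1.25, summed to 26.1 to 1570 CPM in fasted controls and 24.1 to 302 CPM in fasted S662D mice. The part of the precursor, endothelial and choroid plexus markers in the Fabp7 result was not tested.

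By Pearson correlation of log2 CPM over the 35 mice, among 15478 other genes averaging 1 CPM or more, the genes most like Fabp7 were Cry1 (0.839), Trim8 (0.838), Sall2 (0.83), Msl1 (0.826) and Cldn5 (0.825). With the group means subtracted these values were lower, at 0.148, 0.3, 0.397, 0.284 and 0.506 in the same order. All correlations given here are descriptions. The 35 mice include the fed mice by which Fabp7 was chosen, and they share library sets. In fasted S662D mice, where 5.57% of all genes were called, Trim8 was higher by 0.27 (SE 0.052, adjusted p = 0.00236) and Msl1 by 0.23 (SE 0.036, adjusted p = 0.000124). Sall2, at 0.11 (SE 0.045, adjusted p = 0.135), did not pass. Of 49 alternatives, Trim8 lost its call in 3, with a lowest value of 0.10, and Msl1 in 2, while Sall2 passed in 2. The fasted mice are among those by which these genes were found most like Fabp7. After the group means were subtracted, the leading genes were Gm5067 (0.679), Vegfa (0.677), Rarg (0.675), Upp1 (0.662) and Tmem80 (0.646). Over all 35 mice Fabp7 had a correlation of -0.694 with Nr1d2 and -0.764 with Per2, which became -0.0785 and 0.0448 after the group means were subtracted. Vegfa, the endothelial growth factor, and Rarg, a retinoic acid receptor, were not called in fasted S662D mice, at 0.10 (SE 0.073) and 0.083 (SE 0.092).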

How the data were processed

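The authors deposited raw counts per gene, with a separate table for each mouse. The counter was featureCounts 2.0.1 with GENCODE vM12 (mm10), per the file headers, with multi-mapping reads counted at every alignment and no strand option. The submitters' processing notes list STAR 2.7.10b, without its role. No 2 libraries agreed within sampling noise (lowest chi-square per degree of freedom 2.44).

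Genes passing edgeR's filterByExpr (minimum count 10) were scaled by TMM and fitted with 1 mean per group over all 35 libraries (edgeR 4.0.16, R 4.3.3, glmQLFit with robust estimation and glmQLFTest), with Benjamini-Hochberg adjustment over all genes tested. Log2 CPM used a prior count of 2. The standard error came from the F statistic. The fit was tested on simulated data.

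The members and lists were chosen with earlier results of these data known. Named genes were the members, the detected family, Per2, Nr1d1, Nr1d2, the 5 genes most like Fabp7 on each measure, and up to 3 called genes per list and direction in fasted S662D mice. Some genes that the rule names are not reported here. Other genes were named after their values were seen, as stated beside them. Lists are described by counts and medians. Relations used 100000 permutations, two-sided.

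The difference between control sets on fasting and the subtraction of set means were added after seeing the data. Alternatives were other scalings and filters, DESeq2 1.42.0, limma 3.58.1 (voom), permutation, a replicate block, the technical sets and leaving out each library. Promoters came from RefSeq.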

Additional observations from a re-analysis of the deposited data

Results flagged for a closer look

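Over 30 combinations of gene and group (the members, Nr1d1, Nr1d2 and Per2 in 5 groups), 1 held a library far from the rest. Nr1d2 in fasted control 5 was at 144 CPM, while the other 9 fasted controls lay between 122 and 131 CPM. Its gap to the nearest took 0.586 of the group's range, more than Dixon's test allows for 10 values. Chance alone flags about 1 in 20 such groups.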

How the results depend on the processing

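Values here are log2 fold changes unless named. Replicate numbers did not pair the mice: correlations of deviations within same-numbered pairs ran from -0.191 to 0.236. With the replicate block, Fabp7 in fasted S662D mice was at 0.52 (adjusted p = 0.00762), no member changed its call, and 6.05% of genes were called. Fabp7 in fasted S662D mice kept its direction in 50 of 50 alternatives (0.49 to 0.65) and its call in all but the fit with the digit as a term (0.51). In the labelled knockout Fabp7 passed with controls 6 to 10 only (-0.51), where 0.556% of genes were called. It also passed by the exact permutation test, unadjusted (-0.44). Its interaction moved to -0.15 without the digit libraries.

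Values of Fabp5 and Fabp3 near 0 changed sign. With controls 1 to 5 only, fasted S662D gave 0.023 for Fabp5 and 0.071 for Fabp3, fasting in controls -0.28 (passing) and -0.074, the Fabp3 interaction 0.14 and Fabp3 in the labelled knockout 0.025. With controls 6 to 10 only, Fabp5 gave 0.10 for fasting, -0.13 for the interaction and -0.12 for the labelled knockout, which was -0.015 by library size and -0.0022 by upper quartile. Without the digit libraries, fasted S662D gave 0.012 and 0.050, the interaction -0.017 and 0.0094 for Fabp5 and Fabp3, fed Fabp5 0.029 and the labelled knockout against S662D -0.0068 for Fabp5. With the digit libraries alone, fasting in S662D gave 0.024 for Fabp5 and the labelled knockout against S662D 0.021 for Fabp3. With the digit as a term, fasted S662D gave 0.048 and 0.037, fed Fabp5 -0.0087 and the labelled knockout against S662D -0.044 for Fabp5. The cause was not tested.

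Between the fasted control sets Fabp3 passed by library size only (0.23), without a filter (0.22), above 1 CPM (0.22) and with only those groups (0.21). For the sets' difference on fasting, added after seeing the data, it passed under the same 4 settings (0.30, 0.29, 0.29, 0.29). With 1 library left out, these ranged from 0.14 to 0.24 and 0.22 to 0.34 for Fabp3 and from 0.21 to 0.30 and 0.33 to 0.42 for Fabp5. Likewise, Fabp3 ranged from -0.084 to 0.0011 in fasted S662D and -0.053 to 0.032 for the interaction, and Fabp5 from -0.078 to 0.027 for fasting in S662D and -0.032 to 0.046 in the labelled knockout.

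For Fabp7 with Nr1d2 in fed controls r was -0.714 without the 2 farthest mice, which leaves 8, and -0.731 with set means subtracted, an alternative added after seeing the data. With that subtraction Fabp3 in fed controls was at 0.0906 with Nr1d1 and 0.0993 with Nr1d2, and Fabp7 with Nr1d1, fasted, at 0.0055. Without the 2 farthest mice r changed sign for Fabp3 with Nr1d1 (0.322 fed, -0.133 fasted) and Nr1d2 (0.0462 fed, 0.367 fasted) and for Fabp5 with Nr1d2 fasted (0.718). By library size, Fabp7 with Nr1d1 and Fabp5 with Nr1d2, fasted, were at 0.0954 and 0.0988.

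Context genes changed sign near 0: Per2 for fasting in controls 6 to 10 (-0.024) and for the interaction (-0.026 with controls 1 to 5, -0.011 at the lowest with 1 library left out), Nr1d1 for fasting without the digit libraries (0.0070) and in the labelled knockout against S662D with the digit term (0.0066), and the Nr1d2 interaction without the digit libraries (0.012).

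The share of genes called ranged widely over the alternatives. Over choices of sets or the digit it was 0.111% (digit term) to 17.1% (digit libraries) in fasted S662D, 0.0854% to 16.9% fed, 0.139% to 16.2% for the labelled knockout against S662D, 0.0373% to 3.71% for fasting in S662D mice, 0.0113% to 0.556% for the labelled knockout against controls, and up to 2.73% for the interaction. Fasting in controls gave 1.69% (no filter) to 7.40% (controls 1 to 5). Sets of fasted controls gave 0.401% (without fasted control 5) to 10.9%, of fed controls up to 2.77%, and their difference on fasting 3.77% (no filter) to 16.7%, the upper limits with only the groups compared. Fabp7 rested on 145 to 990 counts per library, which limits its precision.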

Other observations

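Fabp5 and Fabp3 varied together with transcripts of other kinds. Over the 35 mice, the genes most like Fabp5 were Cd63, a tetraspanin of late endosomes (0.888), Stmn4, a neuronal microtubule regulator (0.874), and Rpl21, a ribosomal protein gene (0.866). After the group means were subtracted, Ppia, the cyclophilin A gene, led (0.918). The genes most like Fabp3 were Upf3a, a factor of nonsense-mediated decay (0.812), and Rab24, a small GTPase (0.811), and Macrod1 led after the subtraction (0.849). These genes were named after their values were seen, and the correlations are descriptions over mice that share library sets.

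Fasted control 5 was the lowest of the 10 fasted controls for all 3 members, with Fabp7 at 8.64 CPM, Fabp5 at 66.6 CPM and Fabp3 at 33.2 CPM, and the highest for Nr1d2. Mitochondrial genes took 8.7% of its counts, against 6.81% to 7.85% in the other fasted controls, and the part of this in these values was not tested.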
